A study of Drosophila melanogaster with 3 samples.

Results

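A set of 10 cell cycle genes, made up of CycE and genes of mitosis, was examined for regions bound by Hsf-GFP in whole Drosophila melanogaster embryos. They are the cyclin genes CycA, CycB, CycB3 and CycE, the kinase genes Cdk1, aurA, aurB and polo, the phosphatase gene stg (string) and fzy (fizzy), taken by name from the annotation as 10 of 18164 annotated genes and 10 of 13945 protein-coding genes. Every region whose summit lay in one of these genes or within 2 kb of it was counted as a region of that gene, so a region between neighbouring genes belonged to both. The embryos were 0 to 24 h old, males and females pooled, and came from a transgenic line that carries Hsf fused at its C terminus to GFP in a stable form. Chromatin was sonicated to 200 to 800 bp and precipitated with an antibody against GFP. All 3 samples are biological replicates in a single group, no heat treatment was named in the labels, and a control experiment was named but not analysed here. All ages and cell types of the embryo were mixed, and the region lists give no expression values, so no marker of a tissue or stage could be checked.

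Hsf is the transcription factor that activates heat shock genes through repeats of the triplet GAA, and it is also present in unstressed embryos. Cyclin-dependent kinase 1, the product of Cdk1, needs a mitotic cyclin to act, is held inactive by phosphorylation and is released by the Cdc25 phosphatase that stg encodes. The Aurora and Polo kinases then act on centrosomes, chromosomes and spindle, and fzy, the fly Cdc20, directs the anaphase promoting complex to destroy the cyclins. In fly embryos the first nuclear divisions run on maternal products, and later transcription of stg times each division.

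The lists divide regions by strength. The authors' pooled list held 30000 regions, peaks and background together, of which 5756 (19.2%) were also optimal peaks. The optimal list comes from a test of reproducible ranking between replicates (IDR, irreproducible discovery rate). At the genes examined, every optimal peak ranked 5090 or better in the pooled list, and every other region 6068 or worse. Being optimal thus went with pooled strength at these genes. Over all pooled regions, 67.9% of the optimal peaks had an overlapping region among the 5756 strongest of every replicate, against 2.61% of the others. Being optimal alone therefore does not show that the replicates agreed on a given peak. The signal is the authors' score of a region, and how the control entered it is not given in the sources used here. Its scale differs from list to list, so strength is compared by rank within a list, rank 1 being the strongest. The optimal peaks had pooled signals of 97.0 or more, with a median of 167. Read counts are not part of the lists, so the depth behind each region is unknown. The 3 replicate lists held 30000, 28225 and 30000 regions.

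The 10 genes had 34 pooled regions, 13 of them optimal. The sequences that carry the main differences between them are given first, in dm6 coordinates and in the direction of the gene, and end where an annotated UTR begins. The region upstream of aurA (chr3R:11962920-11963120, plus strand) and that upstream of Cdk1 (chr2L:10386397-10386597, minus strand) are the strongest promoter peaks of the set, those of CycB3 (chr3R:24870817-24870946, minus strand) and fzy (chr2L:16310727-16310882, plus strand) hold the letters of the M1BP motif, and that of CycA (chr3L:11833579-11833661, minus strand) did not reach the optimal list. The stretch past the 3′ end of stg (chr3R:29251514-29251714, minus strand) is its only optimal peak, and the one upstream of stg (chr3R:29256164-29256364, minus strand) is a weaker region. Capitals mark matches of letters: TATA boxes in Cdk1, M1BP in CycB3 and fzy, and M1BP and then DREF in CycA. Upstream of stg they mark the Zelda motif, read on the other strand. Whether any of these matches acts was not tested.
aurA: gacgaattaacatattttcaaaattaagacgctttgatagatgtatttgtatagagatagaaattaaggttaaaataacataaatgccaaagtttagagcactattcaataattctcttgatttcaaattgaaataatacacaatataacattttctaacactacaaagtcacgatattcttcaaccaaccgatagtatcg
Cdk1: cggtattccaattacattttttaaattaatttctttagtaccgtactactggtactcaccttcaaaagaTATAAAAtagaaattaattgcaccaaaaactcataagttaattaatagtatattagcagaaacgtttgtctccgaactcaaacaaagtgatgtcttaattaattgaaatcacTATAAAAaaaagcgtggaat
CycB3: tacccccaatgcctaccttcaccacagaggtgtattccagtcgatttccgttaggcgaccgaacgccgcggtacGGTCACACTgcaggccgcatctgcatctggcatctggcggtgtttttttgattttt
fzy: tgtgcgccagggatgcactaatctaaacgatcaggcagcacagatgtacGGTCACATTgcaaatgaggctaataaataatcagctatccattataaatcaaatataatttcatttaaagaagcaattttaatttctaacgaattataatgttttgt
CycA: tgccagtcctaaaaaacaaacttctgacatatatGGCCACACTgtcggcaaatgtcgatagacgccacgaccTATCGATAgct
stg downstream: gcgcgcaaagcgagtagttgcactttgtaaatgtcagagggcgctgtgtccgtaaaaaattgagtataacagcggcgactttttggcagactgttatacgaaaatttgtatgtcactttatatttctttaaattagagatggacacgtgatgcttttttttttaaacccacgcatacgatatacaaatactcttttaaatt
stg upstream: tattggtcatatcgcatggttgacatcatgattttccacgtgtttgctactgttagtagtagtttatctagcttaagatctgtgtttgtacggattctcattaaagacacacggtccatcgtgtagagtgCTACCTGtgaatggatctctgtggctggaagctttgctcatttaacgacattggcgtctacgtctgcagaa

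An optimal peak lay in or within 2 kb of 9 of the 10 genes, against 42.9% of protein-coding genes and 38.8% of all annotated genes. The gene without one was CycA. At 7 of the 10, an optimal summit lay 500 bp or less from a transcription start site (TSS) of the gene itself, against 26.1% of protein-coding genes, and the 3 without were aurB, CycA and stg. In every replicate, 6 of the 10 had a region among that replicate's 5756 strongest, against 34.1% of protein-coding genes. Those 6 were aurA, aurB, polo, Cdk1, CycB and fzy. The genes were chosen by name, with earlier results of these data known, so these counts are descriptions with no test. For 19 of the 34 regions, and 6 of the 13 optimal peaks, the nearest TSS was that of another gene. Counting a region only for the gene with the nearest TSS left 6 genes with an optimal peak, against 25.2% of protein-coding genes. The genes that dropped out were aurB, Cdk1 and stg. The optimal peak of fzy was itself nearest to the TSS of cni. fzy stayed in this count only because a weaker region on its TSS overlapped that peak.

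**Figure D1:**
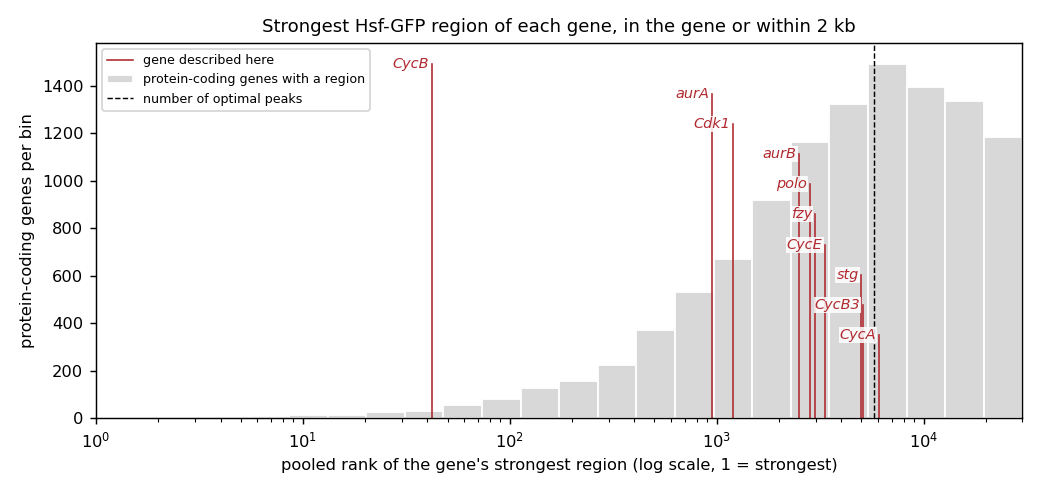
Number of protein-coding genes by the pooled rank of their strongest region in the gene or within 2 kb (x axis, log scale; y axis, genes per bin; grey bars), with a red line for each of the 10 genes described here (heights are for legibility alone) and a dashed line at 5756, the number of optimal peaks. CycB stands at rank 42, aurA and Cdk1 near rank 1000, and CycA alone to the right of the dashed line, at 6068.

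Among the cyclins, the strongest peak of the set lay beside CycB, which encodes the cyclin B that partners Cdk1 in mitosis (FBgn0000405, chr2R:22803521-22806948, minus strand, 3 annotated TSSs). It was not at the promoter but past the gene's 3′ end (chr2R:22802769-22803144, intergenic), with a pooled signal of 1306 and rank 42. Its signals were 499, 476 and 339 in replicates 1, 2 and 3, and its ranks there were 43, 51 and 47, a position of 0.16% ± 0.0189 of the list (SD, n = 3). All 3 replicates therefore placed it among their 100 strongest regions, with summits within 2 bp of the pooled summit. Of all protein-coding genes, 0.8% had a stronger region by the same rule.

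The summit lay 566 bp past the annotated end of CycB and 775 bp past the end of blw, which encodes a subunit of the mitochondrial ATP synthase and runs toward CycB, so that the peak sat between the tails of both genes. The nearest TSS was that of CycB itself, 3348 bp away. Such a distance was uncommon at this strength, since 7 of the 100 strongest pooled regions lay more than 3000 bp from any TSS, against 21.5% of all optimal peaks. The base composition within 100 bp of the summit was 36.8% G and C, against a median of 35.3% over all optimal peaks. By a sum of absolute log2 rank differences over the replicates, the most similar regions elsewhere were those at CG5611 (pooled rank 36, replicate ranks 35, 49 and 45, sum 0.417), lncRNA:CR45643 (pooled rank 44, replicate ranks 52, 45 and 46, sum 0.486) and Hpf1 (pooled rank 45, replicate ranks 51, 53 and 38, sum 0.608). The promoter of CycB carried a second optimal peak, 78 bp upstream of its first TSS (chr2R:22806818-22807233), with signal 150 and rank 3320. It ranked 3467, 4785 and 2794 in replicates 1, 2 and 3, far below the downstream peak in each.

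CycB3 encodes a further mitotic cyclin, cyclin B3 (FBgn0015625, chr3R:24867934-24870816, minus strand). Its promoter peak (chr3R:24870638-24871053) had signal 107 and rank 5090, 30 bp upstream of the TSS and just inside the optimal list. The replicates disagreed more than at CycB, with signals of 59.5, 19.1 and 32.2 and ranks of 3568, 9958 and 4805 in replicates 1, 2 and 3. Replicate 2 placed it outside its 5756 strongest regions. At 51.7% G and C it was the most GC-rich of the 13 optimal peaks. Both other regions of the gene were weak, with signals of 41.3 and 25.3.

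CycA, whose product acts in S phase and mitosis and is needed for embryonic cell divisions (FBgn0000404, chr3L:11826719-11833578, minus strand), had its strongest region on its only annotated TSS. That region (chr3L:11833353-11833768, 5′ UTR) had a summit 17 bp downstream of the TSS, signal 92.7 and rank 6068, just below the lowest optimal signal of 97.0. Replicates 1, 2 and 3 gave signals of 55.2, 11.1 and 27.9 and ranks of 3979, 24632 and 5833. Replicate 1 alone placed it among its 5756 strongest, and replicate 2 near the bottom of its list. The other 3 regions of CycA, at and past its 3′ end, had signals of 26.5 to 39.4. The nearest TSS of those 3 was that of CG32095.

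CycE, whose product drives entry into S phase with Cdk2 (FBgn0010382, chr2L:15727581-15748150, minus strand), was the longest gene of the set at 20.6 kb and has 3 annotated TSSs. Of its 2 optimal peaks, the stronger (chr2L:15746947-15747060) had signal 149 and rank 3346, in an exon of the noncoding gene lncRNA:CR44974 within a CycE intron. It lay 389 bp upstream of the middle CycE TSS and 1151 bp downstream of the first. Its ranks were 3476, 2851 and 6809 in replicates 1, 2 and 3. The weaker peak (chr2L:15747065-15747480, signal 124, rank 4226) adjoined it, and the replicate regions with the nearest summits ranked 4080, 5465 and 6813. Replicate 3 placed neither among its 5756 strongest. The remaining 2 regions, with signals of 64.4 and 61.1, were intronic and lay more than 2 kb from any TSS.

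**Figure D2:**
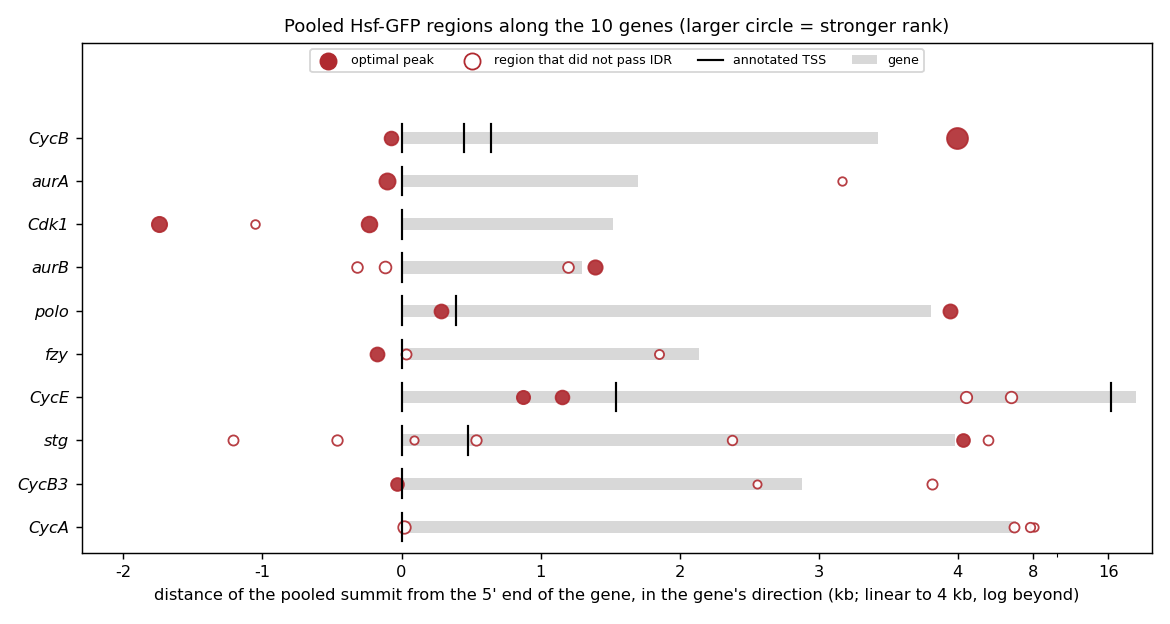
Summits of the 34 pooled regions along the 10 genes (rows), plotted by distance from the 5′ end of the gene in its own direction. The x axis is in kb, linear to 4 kb and log beyond. Grey bars are gene bodies and black ticks annotated TSSs. Filled circles are optimal peaks and open circles regions outside the optimal list, with larger circles for stronger ranks. The largest circle is the CycB peak past the 3′ end, and aurB, CycA and stg have open circles alone at their TSSs.

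Among the kinases, Cdk1 and aurA had the strongest promoter peaks of the set. Cdk1 (FBgn0004106, chr2L:10384739-10386262, minus strand) had a peak of signal 292 and rank 1199 (chr2L:10386482-10386599, intergenic). Its signals were 112, 113 and 63.1 and its ranks 1244, 1009 and 1799 in replicates 1, 2 and 3, at 4.57% ± 1.27 of the list (SD, n = 3). The summit lay in the 400 bp between the divergent TSSs of Cdk1 and mRpS7, a mitochondrial ribosomal protein gene, 235 bp from that of Cdk1 and 165 bp from that of mRpS7. The peak could therefore not be assigned to one of them. A second optimal peak counted for Cdk1 (chr2L:10387908-10388055, signal 251, rank 1525) lay 1742 bp upstream of it and 101 bp upstream of the TSS of da, which encodes the transcription factor Daughterless. It ranked 2338, 1476 and 1186 in replicates 1, 2 and 3, with summits within 2 bp of the pooled one.

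aurA encodes Aurora A, the kinase of centrosome maturation (FBgn0000147, chr3R:11963124-11964826, plus strand). Its promoter peak (chr3R:11962917-11963159, intergenic) had signal 331 and rank 953, the highest rank of any promoter region here. Its signals were 102, 134 and 107 and its ranks 1481, 736 and 684 in replicates 1, 2 and 3, at 3.27% ± 1.45 of the list (SD, n = 3). The summit was 104 bp upstream of the aurA TSS, between it and the divergent TSS of CG3281, the TSSs being 319 bp apart. In the sequence given above it is AT-rich, with 26.9% G and C, the lowest of the 13 optimal peaks. In replicate 3 a second region (signal 43.1, rank 3193) had its summit 27 bp downstream of the TSS. The heat shock gene Hsp70Ab ends 2215 bp from aurA, and Hsp70Aa lies 6580 bp away. Neither Hsp70 gene had a pooled region within 500 bp of its TSS. The Hsp70 copies are nearly identical in sequence, and how the authors treated reads that match several copies is not given in the sources used here.

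aurB encodes Aurora B, the kinase of the chromosomal passenger complex (FBgn0024227, chr2L:10856797-10858094, minus strand), and differed from aurA in where its peak lay. Its optimal peak (chr2L:10856491-10856906, intergenic, signal 184, rank 2510) had its summit 98 bp past the 3′ end of aurB and 55 bp upstream of the TSS of Dnz1. It ranked 3711, 1762 and 2869 in replicates 1, 2 and 3. The promoter of aurB had a region that was not optimal (chr2L:10858002-10858417), with signal 70.9 and rank 8219, 116 bp upstream of the TSS. Its ranks of 10759, 4980 and 20260 in replicates 1, 2 and 3 differed widely, and only replicate 2 placed it among its 5756 strongest. The replicate 3 region lay 178 bp from this summit and 24 bp from that of a neighbouring pooled region, which shared it. The TSS of Stam, which encodes an endosomal sorting adaptor, lay 442 bp from that of aurB, in the other direction.

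polo encodes Polo kinase, which acts on centrosomes, kinetochores and cytokinesis (FBgn0003124, chr3L:20309654-20313466, plus strand). It had a peak at each end. The 5′ peak (chr3L:20309729-20310144, 5′ UTR) had signal 160 and rank 3042, 283 bp downstream of the first annotated TSS and 110 bp upstream of the second, and ranked 3761, 2748 and 2884 in replicates 1, 2 and 3. The 3′ peak (chr3L:20313394-20313809, intergenic) had signal 170 and rank 2817, 136 bp past the end of polo and 30 bp upstream of the TSS of alphaSnap, a gene of membrane fusion, and ranked 2963, 3514 and 2255. Both peaks had a place among the 5756 strongest regions of all 3 replicates, and their ranks overlapped.

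stg encodes the Cdc25 phosphatase String, the activator of Cdk1 (FBgn0003525, chr3R:29251826-29255800, minus strand, 2 TSSs). It had 7 pooled regions, the most of the set, at 0.878 regions per kb of gene and flanks, against a median of 0.297 over protein-coding genes. Of protein-coding genes, 2.78% were as dense. The pooled list includes background regions, so this is not a density of binding. All stg regions but 1 had signals of 25.9 to 45.0, against a median of 41.4 over the pooled list. Only 1 of the 7 was optimal, the peak past its 3′ end (chr3R:29251406-29251821, intergenic, signal 109, rank 5001), 212 bp from the annotated end and 1163 bp upstream of the TSS of the peptidase gene SP1029. Its ranks were 6387, 6316 and 2935 in replicates 1, 2 and 3, so replicate 3 alone had it among its 5756 strongest. The promoter regions of stg were weaker. The strongest within 500 bp of a TSS (signal 45.0, rank 13532, 464 bp upstream) ranked 28273, 7156 and 22130 in replicates 1, 2 and 3, and the TSS nearest to it was that of CG45544. The region 60 bp downstream of the second TSS had signal 44.0 and rank 13947 and was found in replicates 1 and 3. Another, in the 5′ UTR, had signal 25.9, close to the lowest pooled signal of 24.6.

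fzy encodes the activator of the anaphase promoting complex (FBgn0001086, chr2L:16310956-16313097, plus strand). Its optimal peak (chr2L:16310574-16310989, intergenic, signal 162, rank 2973) lay 174 bp upstream of the fzy TSS and 56 bp from that of cni (cornichon). The 2 TSSs are divergent and 230 bp apart. The peak ranked 4101, 2958 and 3552 in replicates 1, 2 and 3, inside the 5756 strongest in each. A weaker region on the TSS (signal 39.8, rank 15767) overlapped it and was not optimal.

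**Figure D3:**
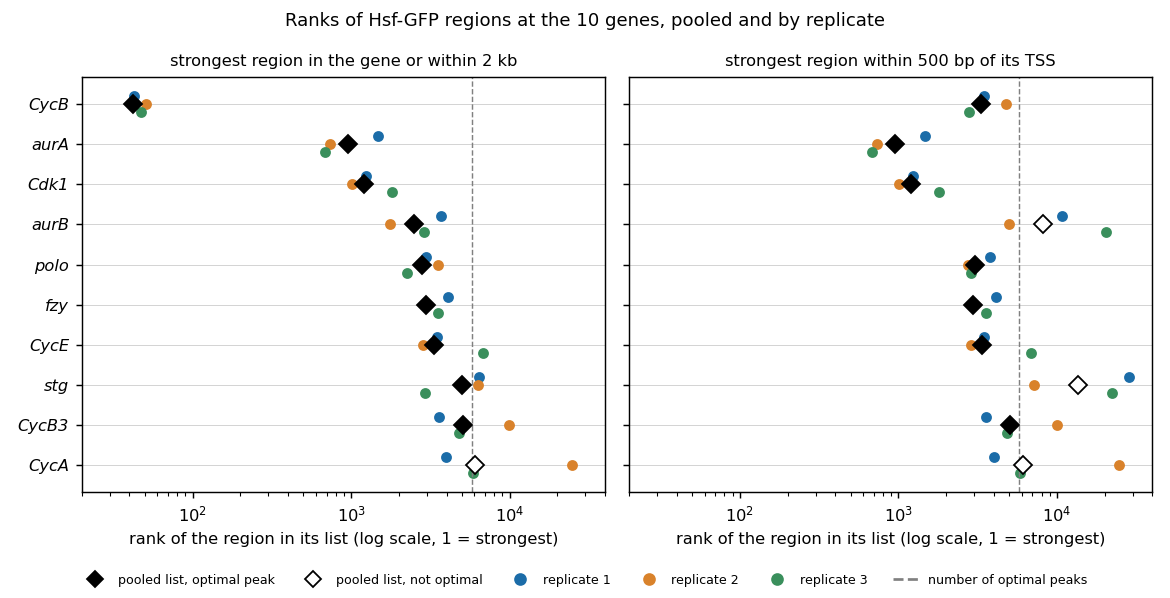
Pooled rank (diamonds, filled where optimal) of the region of each gene that is strongest in the pooled list, in the gene or within 2 kb (left) and within 500 bp of its TSS (right), with the ranks of that region's counterparts in replicates 1, 2 and 3 (circles), on a log scale (x axis, 1 = strongest), with a dashed line at 5756, the number of optimal peaks. The circles of CycB lie together at 43 to 51 in the left panel, while those of CycA spread over 3979 to 24632.

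By position, 10 of the 13 optimal peaks were intergenic, 1 was in a 5′ UTR, 1 in a noncoding exon and 1 in an intron. The remaining 21 regions were spread over coding sequence, UTRs, introns and intergenic stretches. All 7 optimal summits within 500 bp of a TSS of these genes lay upstream of the gene's own nearest TSS, at a median of -110 bp. Over all 3021 optimal summits within 500 bp of a TSS of any gene, the median was -89 bp, with 82.4% upstream. Their quartiles, -177 and -27 bp, enclosed the median of -110 bp. The measures differ, since at Cdk1 and fzy another gene's TSS was nearer than the gene's own. In 2 of the 10 genes, CycB and stg, an optimal summit lay past the 3′ end and more than 500 bp from every TSS, against 3.11% of protein-coding genes. This last rule was chosen after the values were seen.

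All 13 optimal peaks had a region in every replicate list, against 97.8% of all optimal peaks, and 9 of the 13 (69.2%) were among the 5756 strongest in every replicate, against 67.9%. The peaks of these genes were thus close to the optimal peaks in general. Of the 21 other regions, 8 (38.1%) were found in every replicate, against 30.5% of all regions that were not optimal. With the counterpart of highest signal taken in each replicate, the largest distance of a replicate summit from the pooled one was 302 bp, at the weaker CycE peak, which shared its counterparts with the stronger one, and 70 bp or less at each of the others. Over all optimal peaks that largest distance had a median of 40 bp and a 90th percentile of 138 bp. With the nearest summit taken instead, a choice made after seeing the data, it was 70 bp or less at all 13, the largest being at aurA.

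**Figure D4:**
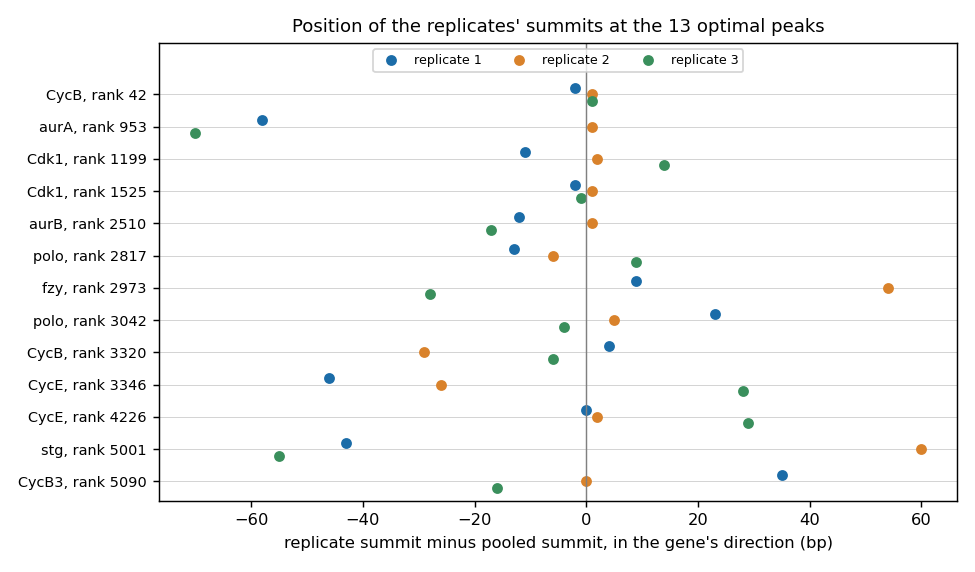
Distance of each replicate's nearest summit from the pooled summit (x axis, bp, positive in the direction of the gene) at the 13 optimal peaks (rows, by pooled rank), with 1 circle per replicate. The circles of the CycB peak at rank 42 and of the Cdk1 peak at rank 1525 lie within 2 bp of 0, and those of aurA reach -70 bp.

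Both strands were searched for motifs, up to 100 bp from each summit. A heat shock element was written as 3 inverted GAA units with gaps of 2 bp, with 1 mismatch allowed in its 9 fixed bases. It was in 0 of the 13 optimal peaks, against 6.18% of all optimal peaks and 4.94% of the other regions. Within 250 bp it was in 2, the 5′ peak of polo and the peak past the end of stg. The shares at that distance were 12.7% of all optimal peaks and 11.7% of the other regions. The letters of M1BP (GGTCACACT, 1 mismatch allowed), a factor of constitutive promoters, were in 5 of the 13, against 7.44% of all optimal peaks and 4.74% of the other regions. They lay 2 bp from the summit at fzy, 22 bp at CycB3, 86 bp at the CycB promoter, 40 and 63 bp at the 3′ peak of polo and 87 bp at the 3′ peak of aurB. With no mismatch allowed, a choice made after seeing the data, the count was 2, against 2.17%.

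The other motifs were found in fewer of the peaks. The TATA box (TATAAAA) was in 2, both of them peaks counted for Cdk1, against 16.1% of all optimal peaks. An E2F site (TTTCCCGC, TTTCGCGC, TTTGCCGC or TTTGGCGC), the letters read by the factor of S phase genes, was in 1, the 3′ peak of aurB, against 2.94%. DREF (TATCGATA), a factor of replication gene promoters, Zelda (CAGGTAG), the activator of the early embryonic genome, and GAGA factor (GAGAGAG) were in 0 of the 13, against 4.97%, 0.782% and 3.06%. Among the regions that were not optimal, the CycA promoter held DREF 24.5 bp and M1BP 62 bp from its summit. The Zelda letters were in 4 of the 21, against 1.15% of all regions that were not optimal. Within 50 bp they were in 2 of the 21, against 0.561%, and within 250 bp in 5, against 3.02%. Within 100 bp they lay 33 bp from the summit in the upstream stg region printed above and 23 bp in the stg 5′ UTR. They also lay 63 bp at a region past the 3′ end of CycA and 97 bp at one past the 3′ end of CycB3. Those last regions were in the coding sequence of CG32095 and the 3′ UTR of Elal, whose TSSs were the nearest. No match says only that these letters are not in the window searched.

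Other genes of the cell cycle were compared from lists chosen with earlier results of these data known. An optimal peak in the gene or within 2 kb was found at 9 of the 10 genes, 17 of 25 other cell cycle regulators, 12 of 22 genes of the anaphase promoting complex, the spindle checkpoint and the chromosomal passengers, and 10 of 16 replication licensing genes, against 42.9% of protein-coding genes. An optimal promoter peak was found at 7, 11, 8 and 5 of them, in the same order, against 26.1%. The median pooled rank of the strongest region was 2895 over the 10 genes, 3940, 3623 and 3777 over the other lists, and 5115 over the protein-coding genes with a region. No test was made between these lists.

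CycB at rank 42 was stronger than the top gene of each of those lists. Among the other regulators the highest were fzr, the second activator of the anaphase promoting complex, with rank 153 (nearest TSS CG3009), Dp, the E2F partner, with 658, and trbl, which promotes String degradation, with 741. Among the genes of the complex and the checkpoint they were rod, a kinetochore protein gene, with 67 (nearest TSS CG1635), Cdc27, a subunit of the complex, with 639 (nearest TSS asRNA:CR43470), and Bub3, a checkpoint gene, with 850 (nearest TSS Cap-D2). Among the licensing genes they were dpa, the fly Mcm4, with 832, PCNA, the polymerase clamp, with 1378 (nearest TSS RpS18), and Mcm2, a subunit of the helicase, with 1507.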

How the data were processed

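Hsf-GFP ChIP-seq regions of 3 biological replicates of whole embryos, all in 1 group, were analysed. The authors deposited lists in narrowPeak format on dm6, per the file headers and labels: each replicate's and the pooled peaks and background regions that entered IDR, at most 30000 each, and the optimal peaks. The deposited signal per region is the authors' value, and how the control entered it is not given in the sources used here. Its scale differs between lists, and it was used for ranks and description alone, with no error of its own. Aligner and peak caller: not given in the sources used here. Depth is unknown, so no counting interval can be given. No contrast between groups exists.

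Gene models came from Ensembl release 115 (annotation 6.54), built on genome release 6, which is dm6, and motifs and sequences were read from the RefSeq genome of that release. A region belonged to a gene when its summit lay in the gene or within 2 kb. A gene had an optimal peak when such a region overlapped an optimal peak by 1 bp or more. A region was itself called optimal when it had the coordinates of an optimal peak, and 2 regions overlapped one without being one. A replicate's counterpart was the overlapping region of highest signal. Neighbouring regions at aurB, CycA, CycE, stg and fzy can share 1 counterpart. Ranks count the regions of higher signal. Position in a replicate list is given as mean ± SD of the percent rank. The members and lists were chosen with earlier results of these data known, and no test was run. All 10 genes were named, with up to 3 genes of each other list by signal, neighbours with a nearer TSS, and 3 regions ranked like that of CycB. Of the listed symbols, lat was not matched and lmg was matched as lmgA. Python 3.11.15, numpy 2.4.6 and pandas 2.3.3 were used, and the overlap and motif searches were tested on simulated data. The alternatives were other distances, thresholds, overlaps and motif windows, and leaving out each replicate. Those with identical coordinates, a promoter count by nearest TSS, recovery within 500 bp of a TSS, nearest-summit counterparts and M1BP without mismatch were chosen after seeing the data.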

Additional observations from a re-analysis of the deposited data

How the results depend on the processing

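With summits inside the gene alone, 4 of the 10 genes had an optimal peak, aurB and fzy among them only by overlap with a neighbouring optimal peak, against 14.6% of protein-coding genes. With the optimal peaks above their median signal the count was 5, against 27.5% of protein-coding genes. At this setting 2 genes (aurA and Cdk1) kept a promoter peak, against 15.5%. Each replicate was left out in turn, requiring the 5756 strongest of both others. This gave 6 to 7 genes with an optimal peak, against 35.0% to 36.1% of protein-coding genes. It gave 5 to 6 with a promoter peak, against 20.2% to 21.1%, and 6 to 7 recovered, against 36.0% to 37.4%. CycE dropped out of the promoter count without replicate 1 or 2 and CycB3 without replicate 1 or 3. With the 2878 strongest regions of each replicate, 3 genes (aurA, Cdk1 and CycB) were recovered in all replicates, against 21.2% of protein-coding genes. With any region of the lists, 10 were, against 66.9%. Within 5 kb, 10 genes had an optimal peak, against 56.8% of protein-coding genes. With 50% overlap the count was 9, against 42.9%, and by nearest TSS 6, against 25.2%. With TSS windows of 200 or 1000 bp the promoter counts were 5 and 7, against 20.3% and 29.5%. These counts of genes, and those under the alternatives for them chosen after seeing the data, moved by no more than 1.5 times. By nearest TSS, fzy was counted only through overlap with an optimal peak nearer to the TSS of cni. Within 500 bp of a TSS the strongest ranks were 8219 for aurB, 3320 for CycB and 13532 for stg. Within 5 kb that of CycA was 3104. Within 50 bp of the summit, M1BP was in 3 of the 13 peaks, the TATA box in 1 and E2F in 0. The shares of all optimal peaks were 3.34%, 8.5% and 1.18%. Within 250 bp, M1BP was in 5, against 15.0%, and the TATA box in 4, against 29.6%. E2F was in 2, against 9.69%, and the heat shock element in 2, against 12.7%. M1BP with no mismatch was in 2, against 2.17%. No paired analysis was possible because all samples form 1 group. Depth is unknown, so a region missing from a list cannot be told apart from one that was not detectable.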
